A study of Mus musculus with 21 samples.

Results

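The TGF-beta superfamily receptors described here are 10 genes: the type I receptors Acvr1, Acvr1b, Acvr1c, Bmpr1a, Bmpr1b and Tgfbr1, and the type II receptors Acvr2a, Acvr2b, Bmpr2 and Tgfbr2. They were chosen by gene symbol from the 35266 genes of the count table, with earlier results of these data known, so their values are a description and not independent evidence. The expression profiles came from AGRP and POMC neurons of the hypothalamic arcuate nucleus of male mice on the C57BL/6J background, each with a fluorescent reporter transgene. AGRP neurons were taken from NPY-hrGFP mice and POMC neurons from Pomc-GFP mice, so a cell entered a pool because its reporter, driven by Npy or Pomc regulatory sequence, was on. Fed mice had food ad libitum (AGRP n = 5, POMC n = 5), and food-deprived (FD) mice had water only for 24 hr (AGRP n = 6, POMC n = 5). All mice were housed alone for those 24 hr and were between postnatal day 46 and 56. Each library was a hand-sorted pool of 44 to 214 fluorescent neurons from 1 brain, whose RNA was amplified before sequencing, and it held between 9822298 and 37663979 reads counted to genes.

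Receptors of this superfamily are transmembrane serine/threonine kinases that work in pairs of types: a type II receptor binds the ligand and phosphorylates a type I receptor, which then phosphorylates a SMAD protein. Acvr1b (ALK4), Acvr1c (ALK7) and Tgfbr1 (ALK5) act on SMAD2 and SMAD3, the branch used by activins, nodal, several GDFs and TGF-betas. Acvr1 (ALK2), Bmpr1a (ALK3) and Bmpr1b (ALK6) act on SMAD1, SMAD5 and SMAD9, the branch used by bone morphogenetic proteins (BMPs).

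Agrp and Pomc were read in the sorted pools. POMC cells were picked by a reporter driven by Pomc regulatory sequence, so Pomc is not an independent check of their identity. In TPM, the authors' level scaled for transcript length and library size, Agrp ran from 2053 to 19930 in the AGRP libraries and from 5.27 to 69.3 in the POMC libraries, and Pomc ran from 7162 to 23060 in the POMC libraries and from 7.35 to 69.7 in the AGRP libraries. The summed TPM of 16 astrocyte, oligodendrocyte, microglia and endothelial markers was 36.1 to 53.6 in fed AGRP, 26.6 to 45.2 in FD AGRP, 28.4 to 34.6 in fed POMC and 25.5 to 57.8 in FD POMC libraries, most of it from the oligodendrocyte markers, and 2 or 3 of the 16 markers were at 0 throughout each group. Of these 16 markers 10 were tested, and 1, the astrocyte marker Aldh1l1, passed in AGRP neurons between FD and fed. Its part in the receptor results was not tested. In pooled cells, fewer cells that express a gene and less RNA per cell cannot be told apart.

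The promoters of the 3 receptors on which the comparisons below turn most, Acvr1c, Acvr1b and Acvr2a, are shown first so that their sequences can be read beside their levels. Each line gives the 250 bases before a RefSeq start in the GRCm38.p6 assembly, the same mouse build as mm10, 5′ to 3′ on the gene's strand. Capitals mark every match on either strand to the E-box CACGTG or the GC box GGGCGG, which may overlap each other.
Acvr1c (chr2:58357759-58358008, minus strand): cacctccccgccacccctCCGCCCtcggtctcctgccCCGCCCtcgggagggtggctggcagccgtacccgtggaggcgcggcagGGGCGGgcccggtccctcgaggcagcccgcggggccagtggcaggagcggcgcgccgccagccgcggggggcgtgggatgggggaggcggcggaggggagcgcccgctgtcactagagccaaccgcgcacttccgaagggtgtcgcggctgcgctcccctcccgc
Acvr1b (chr15:101173822-101174071, plus strand): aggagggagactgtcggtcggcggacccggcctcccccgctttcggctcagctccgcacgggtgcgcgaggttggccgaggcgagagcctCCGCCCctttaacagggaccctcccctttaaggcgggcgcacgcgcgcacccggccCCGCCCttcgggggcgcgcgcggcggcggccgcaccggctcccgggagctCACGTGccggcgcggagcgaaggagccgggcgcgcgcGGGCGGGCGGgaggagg
Acvr2a (chr2:48813859-48814108, plus strand): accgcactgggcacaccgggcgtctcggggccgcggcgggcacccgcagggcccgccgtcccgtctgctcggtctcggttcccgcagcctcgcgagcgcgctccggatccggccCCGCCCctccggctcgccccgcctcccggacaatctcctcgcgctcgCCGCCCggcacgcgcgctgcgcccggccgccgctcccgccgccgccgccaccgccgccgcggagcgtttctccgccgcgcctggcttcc

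All 3 windows were rich in CpG, with 32 CpG dinucleotides in Acvr1c, 42 in Acvr1b and 49 in Acvr2a, against a median of 6 over 32851 promoter windows of the same length. The table of promoters held all 10 receptors in 14 entries. Acvr1c had another entry, not shown (chr2:58324808-58325057), with 2 CpG dinucleotides and 0 GC boxes. The GC box stood in the windows of 8 of the 14 entries, including 3 copies for Acvr1c, 4 for Acvr1b and 2 for Acvr2a, while 32.7% of all windows held at least 1. The E-box CACGTG was found in 1 of the 14 entries, that of Acvr1b, and in 6.02% of all windows. The BMP-related GC-rich motif GGCGCC was present for Bmpr1a, Bmpr2 and Tgfbr1 (9.59% of all windows), and TATAAA for Bmpr1b alone (12.4%). No entry held the SMAD palindrome GTCTAGAC (0.167% of all windows), the CRE TGACGTCA (1.55%) or the FOXO motif GTAAACA (3.17%). These matches describe letters in a window and are not binding sites.

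The 10 receptors differed widely in level, from no reads to a mean of 387 TPM, and the order differed between the neuron types mainly in the place of Acvr1c. In fed AGRP neurons Acvr1c (mean 177 TPM ± 52.0, SD, n = 5) and Bmpr2 (175 ± 20.4) stood highest, followed by Acvr1b (120 ± 39.4) and Acvr2a (97.3 ± 16.8), then Bmpr1a (45.7 ± 10.6), Acvr1 (36.3 ± 15.5), Tgfbr1 (15.3 ± 3.51), Acvr2b (9.21 ± 3.71) and Bmpr1b (1.99 ± 1.16), and Tgfbr2 was at 0. Acvr1c exceeded Bmpr2 in only 2 of 5 libraries and Acvr1b exceeded Acvr2a in 3 of 5, so those neighbours were not separated beyond their spread. The ranges of Acvr2a and Bmpr1a did not meet.

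In FD AGRP neurons Acvr1c was highest in 6 of 6 libraries (mean 387 TPM ± 57.1), and its lowest library, at 281 TPM, lay above the highest value of the next receptor, Bmpr2 (mean 147.5 ± 21.5, highest 182). Acvr2a (65.3 ± 10.0), Acvr1b (51.5 ± 22.3), Bmpr1a (41.8 ± 11.7) and Acvr1 (31.1 ± 10.2) followed with overlapping ranges, and Tgfbr1 (15.9 ± 7.32), Acvr2b (6.72 ± 3.73) and Bmpr1b (0.481 ± 0.678) were lower.

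In fed POMC neurons Bmpr2 led in 5 of 5 libraries (mean 164 TPM ± 45.6), above Acvr1b (86.5 ± 25.0) and Acvr2a (84.9 ± 31.1), which crossed each other, and Bmpr1a (53.7 ± 14.4). Tgfbr1 (11.4 ± 3.36), Acvr1 (10.0 ± 4.52), Acvr1c (8.79 ± 4.66), Acvr2b (7.14 ± 4.52) and Bmpr1b (4.60 ± 6.25) had overlapping ranges. In FD POMC neurons Bmpr2 (185 ± 12.6) again led, above Acvr2a (143 ± 19.8), Acvr1b (121 ± 33.1) and Bmpr1a (63.9 ± 18.1), and Acvr1c was at 6.72 ± 5.81, with a range that met those of Acvr2b and Bmpr1b.

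**Figure D1:**
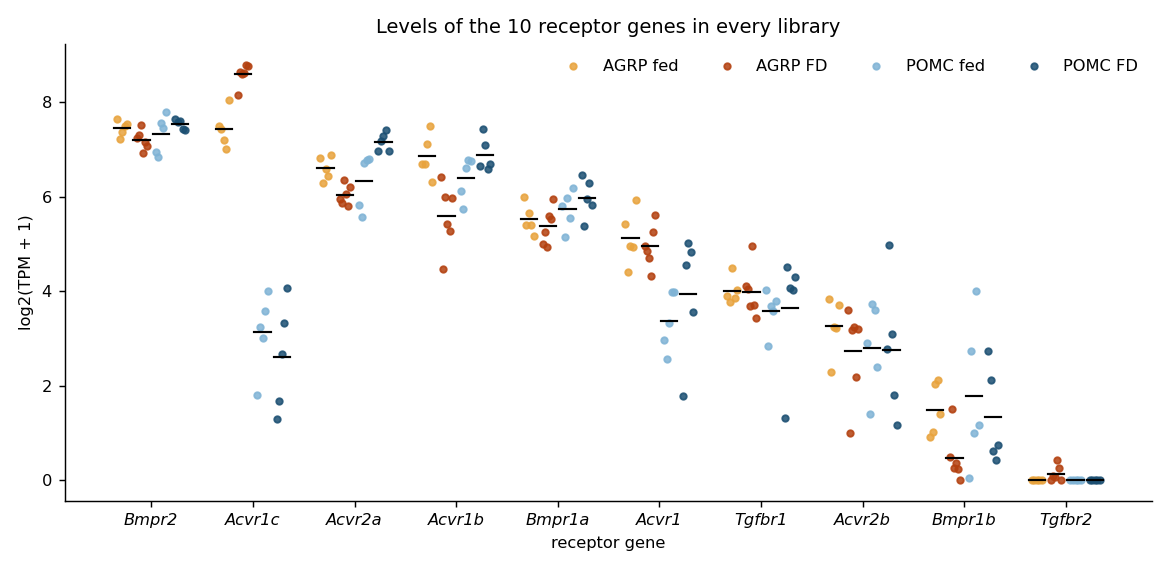
Level of each receptor gene, as log2(TPM + 1), in every library of fed and FD AGRP and POMC neurons; points are libraries (n = 5, 6, 5 and 5 mice) and black lines are group means. Acvr1c lies near the top in both AGRP groups, with 127 to 442 TPM, and among the low receptors in both POMC groups, with 1.44 to 15.6 TPM.

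The widest differences among the receptors were those of Acvr1c, a type I receptor of the SMAD2/3 branch. To compare groups, counts were divided by TMM-adjusted library sizes (normalized CPM), and genes were tested in 1 edgeR quasi-likelihood fit over all 21 libraries. A gene was called when its Benjamini-Hochberg adjusted p (q) over all 16513 genes tested was under 0.05, and 9 of the 10 receptors entered that test. Fold changes below are on the log2 scale of that fit, with their SE.

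Acvr1c encodes ALK7, a type I receptor for activin B and several GDFs. In fed AGRP neurons its normalized CPM was 450.9, 482, 373, 327 and 692 in replicates 1 to 5, and in FD AGRP neurons the lowest, median and highest libraries were at 769, 1294 and 1399. The groups did not overlap, but the lowest FD library, replicate 1, stood nearer to the highest fed library, replicate 5, than to the other FD libraries, the lowest of which was at 1169. The fitted change was 1.39 ± 0.48 (2.61-fold), with q = 0.082 in the edgeR quasi-likelihood fit, which did not pass.

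The edgeR call for Acvr1c in AGRP neurons varied with the method and the libraries fitted, and it passed in 4 of 11 alternatives. Fitted on the 2 AGRP groups alone, the change was 1.38 ± 0.18 with an edgeR q of 3.61e-05. By limma-voom, the test that the study itself used, it was 1.43 ± 0.17 with a q of 3.41e-07. In simulated counts DESeq2 called 30 unchanged genes where edgeR called 5, but each simulated gene had 1 spread, estimated by edgeR, in all groups. Those counts do not judge this call, where the groups differed in spread. By DESeq2 the change was 1.37 ± 0.45 with a q of 0.021. It also passed with replicate number as a block (q = 0.0445). In the other 7 alternatives it did not pass, with q from 0.0556 (limma on log2(TPM + 1)) to 1.0 (spike-in scaling, 1.07 ± 0.76). Of 21 fits that left out 1 library 2 passed, those without FD POMC replicate 1 or replicate 5, neither of which belongs to that comparison, with edgeR q-values of 0.0386 and 0.0384, and the highest q was 0.174. These POMC libraries lay at the ends of the widest relative spread of Acvr1c, where FD POMC neurons had 3.99, 5.97, 14.7, 24.5 and 43.0 normalized CPM. Within spike-in sets, groups of mice that shared 1 way of adding control RNA, the AGRP difference was 1.16, 1.59 and 1.65 on the log2(CPM + 0.5) scale. These sets held 3 FD and 2 fed, 1 and 1, and 2 and 2 libraries. Within age groups it was 1.27 (up to postnatal day 51, 3 FD and 3 fed) and 1.52 (older, 3 FD and 2 fed). FD replicates 1 to 3 made up the FD side of both the first set and the younger group, so the 2 splits are not separate checks.

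POMC neurons had little Acvr1c in either state. The fed libraries held 8.51, 27.3, 19.4, 30.6 and 41.2 normalized CPM, the FD libraries overlapped them, and the change was −0.48 ± 0.50 (edgeR q = 0.79). AGRP libraries were higher in every case, so that the AGRP groups exceeded the POMC groups by 4.19 ± 0.56 when fed (18.3-fold, edgeR q = 5.22e-05) and by 6.06 ± 0.61 when FD (66.5-fold, edgeR q = 7.88e-07). The test of whether the FD change differed between the neuron types gave 1.86 ± 0.69 with an edgeR q of 0.129, which did not pass. It passed in 1 of 10 alternatives, limma-voom (q = 0.0166), with q up to 0.273 in the others, and in 1 of 21 fits that left out 1 library, without FD POMC replicate 5 (edgeR q = 0.0246, up to 0.205 in the others).

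Acvr1b encodes ALK4, the main activin type I receptor. Its normalized CPM was 124, 139, 169, 222 and 98.7 in fed AGRP neurons, and 34.2, 79.1 and 110.1 in the lowest, median and highest FD AGRP libraries. The highest FD library, replicate 1, was the same animal that had the lowest Acvr1c among FD mice, and it overlapped the lowest fed library, replicate 5, which had the highest Acvr1c among fed mice. Acvr1b fell by 1.00 ± 0.24 in FD AGRP neurons (0.499-fold), with an edgeR q of 0.00467. The call remained in all 21 fits that left out 1 library, with q between 0.00156 and 0.032. On the log2(CPM + 0.5) scale the difference was −1.07, −1.14 and −0.95 within the 3 spike-in sets (3 FD and 2 fed, 1 and 1, and 2 and 2 libraries). It was −1.13 and −0.89 within the younger and older mice, where the younger FD mice were again those of the first set. The fall of Acvr1b passed in 10 of 11 alternatives and was lost on spike-in scaling (−0.82 ± 0.75, edgeR q = 1.0). That scaling used the spike-in reads, the labelled spike-in volume and the sorted cell number. The reads were not in proportion to the labelled volume, so it is not a clean measure of RNA per cell. Fed AGRP replicates 1 and 2, labelled with 1 and 10 µl, held 54433 and 2755357 spike-in reads. Over all genes tested, that scaling called 90 in this comparison, against 1733 with TMM scaling.

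In POMC neurons Acvr1b was at 112, 82.0, 127, 147 and 140.4 normalized CPM when fed and at 134, 225, 178, 123 and 135 when FD, with overlapping groups and a change of 0.38 ± 0.25 (edgeR q = 0.578). The change differed between the neuron types by −1.39 ± 0.34 (edgeR q = 0.0109). Fed AGRP and fed POMC neurons differed by 0.31 ± 0.25 (edgeR q = 0.577), while FD AGRP neurons lay below FD POMC neurons by 1.08 ± 0.24 on the log2 scale (−1.08, edgeR q = 0.00104) with no overlap. On spike-in scaling this last difference was 0.15 ± 0.75 in the other direction (edgeR q = 0.899), where the median of all genes shifted by 1.1, and the difference between the changes was −0.33 ± 1.08 (edgeR q = 0.893).

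**Figure D2:**
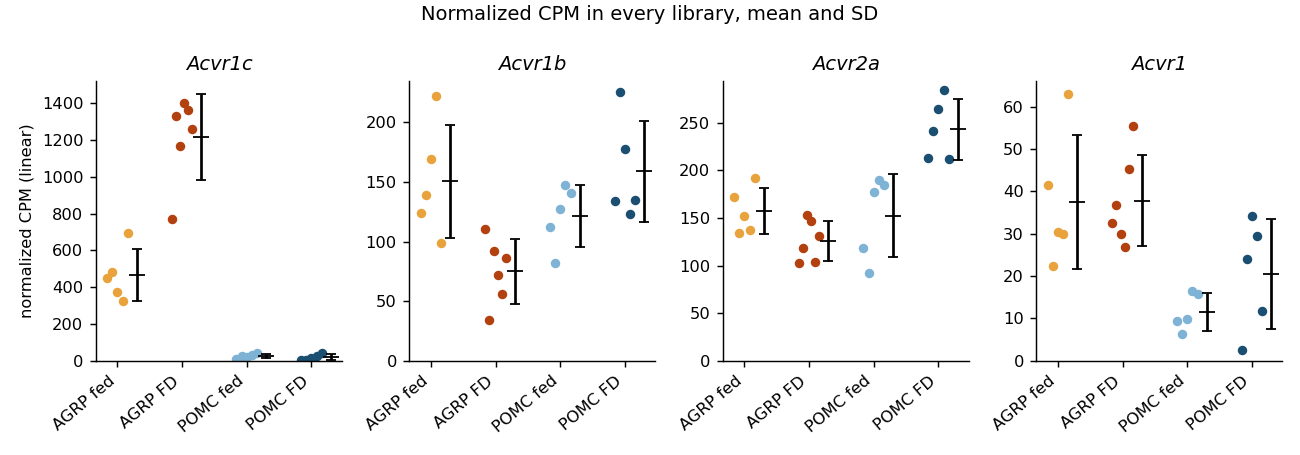
Normalized CPM (linear axis from 0) of Acvr1c, Acvr1b, Acvr2a and Acvr1 in every library of the 4 groups; points are libraries and the black marks beside them are the mean with SD. FD AGRP libraries lie at 769 to 1399 for Acvr1c and at 34.2 to 110.1 for Acvr1b, while FD POMC libraries lie at 212 to 284 for Acvr2a, above all other libraries.

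Because both receptors feed the same SMADs, their balance was also read within each library, where library scaling cancels. The ratio of Acvr1c to Acvr1b in TPM had a median of 1.67 in fed AGRP neurons (range 0.706 to 3.37), 8.18 in FD AGRP neurons (3.36 to 18.7), 0.0999 in fed POMC neurons (0.0365 to 0.16) and 0.0396 in FD POMC neurons (0.0127 to 0.154). The fed and FD ranges of AGRP neurons met only between 3.36 and 3.37, at fed replicate 5 and FD replicate 1. Acvr1c made up 32.2% to 58.0% of the summed type I TPM in fed and 63.5% to 79.3% in FD AGRP neurons, against 1.68% to 7.52% in fed and 0.728% to 7.71% in FD POMC neurons. These ratios restate the values used above and carry no test.

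**Figure D3:**
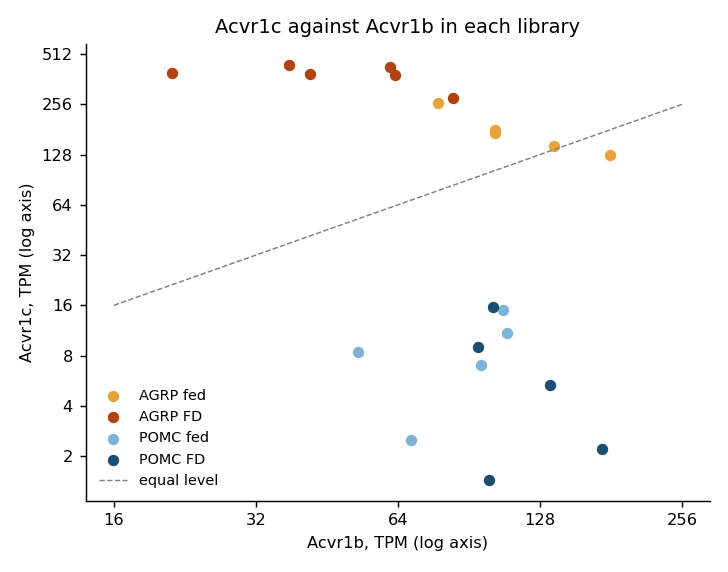
TPM of Acvr1c against TPM of Acvr1b in each of the 21 libraries, both on log axes; the dashed line marks equal levels. FD AGRP libraries stand furthest above the line with ratios of 3.36 to 18.7, fed AGRP libraries lie around it from 0.706 to 3.37, and all POMC libraries lie below it, at 0.16 or less.

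Tgfbr1 encodes ALK5, the type I receptor of the TGF-betas. It was at 24.1 to 38.3 normalized CPM in fed AGRP, 20.04 to 75.4 in FD AGRP, 13.9 to 36.6 in fed POMC and 2.88 to 41.3 in FD POMC libraries. All 4 groups overlapped, and none of its tests passed, with changes of 0.36 ± 0.41 in AGRP neurons (edgeR q = 0.676) and 0.22 ± 0.42 in POMC neurons (edgeR q = 0.903). Its partner Tgfbr2, the type II receptor that binds TGF-betas, had 0 reads in all fed AGRP and all POMC libraries and 0, 2, 1, 21, 6 and 0 reads in the FD AGRP libraries, at most 0.34 TPM. It was the receptor that did not enter the test. A library with 0 reads allows up to 3, which is 0.111 to 0.295 normalized CPM in the 17 libraries at 0, for counting error only.

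Among the BMP-branch type I receptors, Acvr1 was higher in AGRP than in POMC neurons of fed mice. Its normalized CPM was 41.4, 22.3, 30.3, 30.0 and 63.0 in fed AGRP libraries and 9.28, 6.30, 9.79, 16.4 and 15.9 in fed POMC libraries, with no overlap. The difference was 1.699 ± 0.43 (3.25-fold) with an edgeR q of 0.00993. Without fed AGRP replicate 5, its highest library, it was 1.43 with a q of 0.051, and with sorted cell number in the model it was 1.23 ± 0.44 with a q of 0.0924.

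In FD mice the Acvr1 groups overlapped, from 26.8 to 55.4 normalized CPM in AGRP and from 2.66 to 34.1 in POMC libraries, and the difference of 0.89 ± 0.41 did not pass (edgeR q = 0.137). The FD minus fed difference of Acvr1 was 0.01 ± 0.40 in AGRP neurons (edgeR q = 0.994) and 0.83 ± 0.43 in POMC neurons (edgeR q = 0.445). Acvr1 (chr2:58446433-58567157) is the next gene after Acvr1c (chr2:58267452-58357895) in the files' mm10 annotation, 88537 bases away with no other listed gene between them.

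Bmpr1a, a widely expressed BMP receptor, held 56.0 to 158 normalized CPM over all libraries, with overlap between all groups. Its changes were 0.14 ± 0.22 in AGRP neurons (95% interval −0.30 to 0.57, edgeR q = 0.791) and 0.14 ± 0.23 in POMC neurons (−0.31 to 0.59, edgeR q = 0.884). Bmpr1b was near the lower limit of these libraries, with 0 to 506 reads and more than 3 reads in 19 of 21. In fed AGRP neurons it had 1.37 to 5.46 normalized CPM and in FD AGRP neurons 0 to 3.91, a change of −1.72 ± 1.04 (edgeR q = 0.354), and in fed POMC neurons single libraries ran from 0.0553 to 26.9. Between FD AGRP and FD POMC neurons its difference of −1.88 ± 1.04 (edgeR q = 0.229) passed only without FD AGRP replicate 2 (−3.12, edgeR q = 0.0444).

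Of the type II receptors, Acvr2a, which binds activins, had changes of opposite sign in the 2 neuron types, except on spike-in scaling, where both were negative (−0.41 in AGRP and −0.26 in POMC neurons, neither called). Its normalized CPM was 172, 134, 152, 137 and 192 in fed AGRP libraries and 103, 124.7 and 153 in the lowest, median and highest FD AGRP libraries, with overlap and a change of −0.32 ± 0.17 (edgeR q = 0.296). In POMC neurons it was at 119, 92.5, 177, 190 and 185 when fed and at 213, 241, 264, 284 and 212 when FD, without overlap. The POMC change was 0.67 ± 0.18 (1.59-fold) with an edgeR q of 0.0828, which did not pass, and a q of 0.026 by DESeq2.

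The difference between those 2 changes was −0.99 ± 0.25 and passed (edgeR q = 0.0138). It passed in all 21 fits that left out 1 library, with q from 0.00978 to 0.0318, and with age group (−0.95, q = 0.0148) or spike-in set (−0.94, q = 0.0197) in the edgeR model. It passed in 9 of 10 alternatives and was lost on spike-in scaling (−0.15 ± 1.08, edgeR q = 0.953). Over all genes tested, that scaling called 117 in the test between changes, against 1153 with TMM scaling. The 2 lowest fed POMC libraries, replicates 1 and 2, were also the 2 younger POMC mice. Among the older POMC mice alone, 5 FD and 3 fed, the difference on the log2(CPM + 0.5) scale was 0.39, and in the spike-in set with 3 FD and 3 fed mice it was 0.38.

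The difference in Acvr2a between fed AGRP and fed POMC neurons was 0.04 ± 0.18 (95% interval −0.32 to 0.40, edgeR q = 0.944), with overlapping groups. FD AGRP neurons were below FD POMC neurons, with a difference of −0.95 ± 0.18 (0.519-fold, edgeR q = 0.000138) and no overlap. On spike-in scaling it was 0.25 ± 0.75 (edgeR q = 0.829), again in the other direction. The end of Acvr2a shares 447 bases with Orc4 on the opposite strand, out of a gene of 89162 bases. Orc4 had differences of 0.38 ± 0.24 between FD AGRP and FD POMC neurons (edgeR q = 0.313) and 0.43 ± 0.35 for the test between changes (edgeR q = 0.544), both opposite in sign to Acvr2a. Its FD minus fed change was 0.65 ± 0.24 in AGRP neurons (edgeR q = 0.0878), opposite in sign, and 0.22 ± 0.25 in POMC neurons (edgeR q = 0.81), of the same sign. The effect of this overlap on the Acvr2a counts was not tested.

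Bmpr2, the BMP type II receptor, had the smallest SE of the 9 tested receptors in each comparison. It lay between 518 and 851 normalized CPM in every library, and its change was 0.00 ± 0.13 in AGRP neurons (95% interval −0.25 to 0.25, edgeR q = 0.997) and 0.08 ± 0.13 in POMC neurons (−0.18 to 0.34, edgeR q = 0.892). Fed AGRP and POMC neurons differed by −0.07 ± 0.13 (−0.33 to 0.19, edgeR q = 0.86). Acvr2b, the other activin type II receptor, was low, with 9 to 328 reads per library, overlap in every comparison and no test that passed (SE between 0.76 and 1.10).

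**Figure D4:**
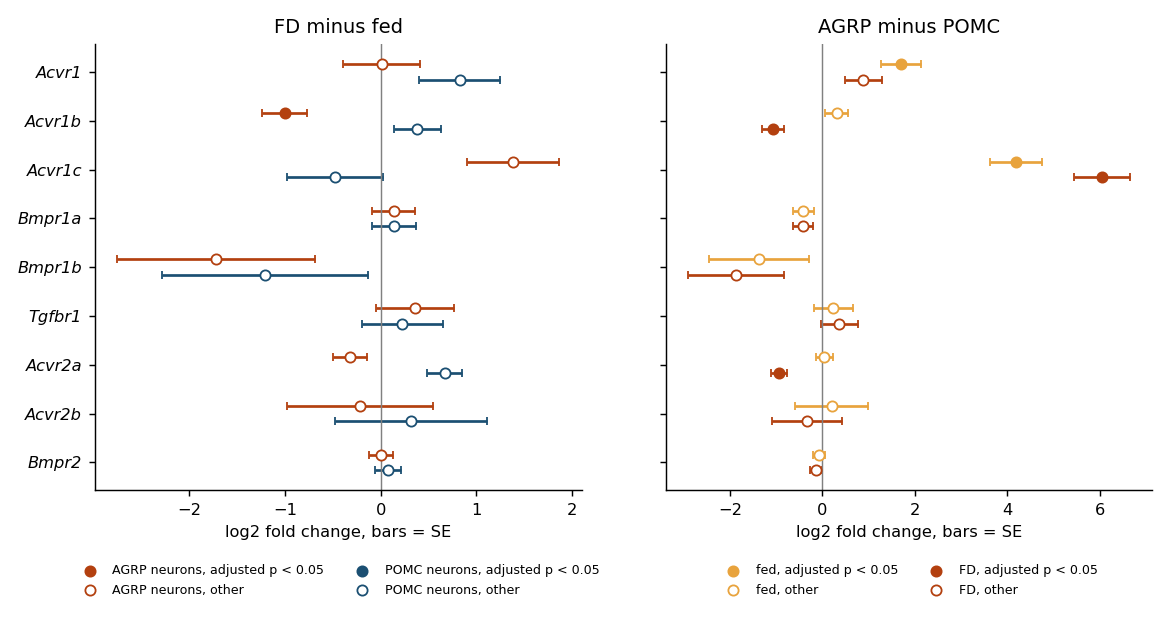
Log2 fold changes of the 9 tested receptors, FD minus fed in each neuron type (left) and AGRP minus POMC in each state (right); bars are SE and filled points have an edgeR adjusted p under 0.05. Acvr1b in AGRP neurons (−1.003) is the filled point on the left, and Acvr1c (4.19 and 6.06), Acvr1 in fed mice (1.699), and Acvr1b (−1.08) and Acvr2a (−0.95) in FD mice are those on the right.

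Counted together, 1 of 9 tested receptors was called between FD and fed AGRP neurons, where 10.5% of all genes tested were called (6.0% higher and 4.5% lower), and 1 of 9, Acvr1c, had groups without overlap, as did 7.65% of all genes. In POMC neurons 0 of 9 were called in edgeR and in limma-voom, against 0.46% of all genes in edgeR. DESeq2, which called 382 of all genes there against 76 by edgeR, called 1 (Acvr2a), and 1 receptor had an unadjusted p under 0.05. Acvr2a alone had POMC groups without overlap, against 2.35% of all genes. Between AGRP and POMC neurons, 2 of 9 were called when fed (7.68% of all genes, 3.36% higher and 4.32% lower in AGRP), the same 2 without overlap (8.93%), and 3 of 9 when FD (18.7% of all genes, 9.36% higher and 9.33% lower), the same 3 without overlap (11.4%). The test between changes called 2 of 9, against 6.98% of all genes. The median change of the 9 receptors was 0.00 in AGRP and 0.22 in POMC neurons, beside −0.02 and −0.02 over all genes tested. With 9 genes and members chosen with results known, nothing is read from these shares.

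Acvr1c was the receptor with the widest difference between group means. The 5 genes whose log2(normalized CPM + 0.5) followed it most closely over the 21 libraries, among 8200 genes averaging over 20 CPM in at least 1 group, were Ghsr (Pearson r = 0.979), Ghr (0.965), Agrp (0.96), Gm8773 (0.956) and Pcdh20 (0.954). Ghsr encodes the ghrelin receptor, Ghr the growth hormone receptor and Agrp the peptide that marks these neurons. The AGRP and POMC libraries form separate groups on these genes, so the pooled r includes the difference between neuron types. The parts of neuron type and feeding state in r were not tested. Within the 11 AGRP libraries, which likewise mix fed and FD mice, r was 0.955, 0.946, 0.918, 0.915 and 0.918, and within the 10 POMC libraries it was 0.669, 0.434, 0.279, 0.365 and 0.406, in the same order. The group means of Ghsr were 163.5 normalized CPM in fed and 539 in FD AGRP neurons, and 2.65 and 0.87 in fed and FD POMC neurons.

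The rest of the pathway was read from 101 genes in 5 lists, of which 60 were tested. Between FD and fed AGRP neurons 5 of these rose and 2 fell, where 6.0% of all genes tested rose and 4.5% fell, and in POMC neurons 1 was called, which rose, against 0.46% of all genes. Between fed AGRP and fed POMC neurons 6 were higher and 4 lower (3.36% and 4.32% of all genes). The medians of these comparisons were −0.06, −0.03 and −0.04 beside −0.02, −0.02 and −0.01 over all genes. Between FD AGRP and FD POMC neurons 11 were higher and 6 lower (9.36% and 9.33% of all genes). Of 30 calls on pathway genes named by the rule, tests between changes included, 11 remained on spike-in scaling.

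The ligands, of which 11 of 33 were tested, held the widest FD changes in AGRP neurons, where 1 rose and 1 fell, against 6.0% and 4.5% of all genes. Bmp2, a BMP ligand, was at 0.0609 to 1.87 normalized CPM in fed AGRP libraries and at 0.865 to 62.1 in FD AGRP libraries, and it rose by 5.14 ± 0.80 (edgeR q = 3.82e-05), although its lowest FD library overlapped the fed group. Bmp3, a BMP family member that can antagonize BMP signalling, was at 32.98 to 87.1 in fed and 0.81 to 12.96 in FD AGRP libraries without overlap, and it fell by 3.21 ± 0.55 on the log2 scale (−3.21, edgeR q = 0.000243). In POMC neurons their changes were 0.56 ± 0.68 and −1.008 ± 0.54, neither called, and the change of Bmp2 differed between the neuron types by 4.58 ± 1.00 (edgeR q = 0.00376, limma-voom q = 0.134). Gdf11, a GDF of the SMAD2/3 branch, was lower in AGRP than in POMC neurons when fed (−1.17 ± 0.27, edgeR q = 0.00449). Bmp2 was lower in AGRP than in POMC neurons when fed (−2.53 ± 0.73, edgeR q = 0.0257) and higher when FD (2.04 ± 0.68, edgeR q = 0.032), each passing in 16 of 21 fits that left out 1 library and in 6 of 11 alternatives, but not by limma-voom (q = 0.306 and 0.199), and Bmp3 was lower when FD (−2.04 ± 0.53, edgeR q = 0.00678).

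Among other receptors and co-receptors, 5 of 8 were tested and 1 rose in FD AGRP neurons, against 6.0% of all genes. Tgfbr3 (betaglycan), a co-receptor that presents TGF-beta and inhibin to the signalling receptors, was at 46.9 to 81.0 normalized CPM in fed and at 74.5 to 207 in FD AGRP libraries, with overlap and a rise of 1.08 ± 0.25 (edgeR q = 0.00329). It was also higher in AGRP than in POMC neurons, by 1.14 ± 0.26 when fed (edgeR q = 0.00288) and 1.38 ± 0.25 when FD (edgeR q = 9.36e-05). The type I receptor Acvrl1 had at most 6 reads in a library, and the type II receptor Amhr2 at most 34.

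Of the 21 extracellular antagonists and binding proteins, 13 were tested. Between FD and fed AGRP neurons edgeR called 0, against 10.5% of all genes (4 at an unadjusted p under 0.05, 1 by limma-voom, 1 by DESeq2). In POMC neurons it called 0, against 0.46% of all genes (2 at an unadjusted p under 0.05, 0 by either other tool). Bmper, a secreted BMP-binding protein, was higher in AGRP neurons by 1.77 ± 0.50 when fed (edgeR q = 0.023) and by 2.95 ± 0.52 when FD (edgeR q = 6.65e-05), and Fstl1, a follistatin-like protein, by 1.06 ± 0.25 when FD (edgeR q = 0.00247). The fed call of Bmper was lost without fed AGRP replicate 2 or 3 or fed POMC replicate 1, 2 or 5, with q between 0.061 and 0.0715.

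The SMADs and intracellular regulators, 22 of 23 tested, had 3 genes that rose and 1 that fell in FD AGRP neurons, against 6.0% and 4.5% of all genes. Smad9, of the BMP branch, fell by 1.25 ± 0.34 on the log2 scale (−1.25, edgeR q = 0.0134), from 33.8 to 58.7 normalized CPM in fed to 6.78 to 31.6 in FD libraries, without overlap. Smad1, of the same branch, rose by 0.92 ± 0.30 (edgeR q = 0.0473), a call kept in 10 of 21 fits that left out 1 library and in 6 of 11 alternatives. Tab2, an adaptor of the TAK1 kinase, rose by 0.52 ± 0.16 (edgeR q = 0.0358), kept in 14 of 21 such fits and in 7 of 11 alternatives. Fkbp1a, which binds type I receptors, rose by 0.45 ± 0.13 (edgeR q = 0.0209). Between FD AGRP and FD POMC neurons Ski, a SMAD co-repressor, was higher by 0.73 ± 0.19 (edgeR q = 0.00416) and Fkbp1a by 0.43 ± 0.13 (edgeR q = 0.0171). That Fkbp1a call was lost without FD AGRP replicate 2 (0.28, q = 0.077) and kept in 6 of 11 alternatives. Smad2 was lower by 0.65 ± 0.23 (−0.65, edgeR q = 0.0493), a call kept in 7 of 21 fits that left out 1 library (q up to 0.148) and in 7 of 11 alternatives, and turned in sign on spike-in scaling (0.46, q = 0.686).

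Of the feedback and target genes, 9 of 16 were tested, and edgeR called 0 between FD and fed AGRP neurons, against 10.5% of all genes. There were 0 at an unadjusted p under 0.05 and 0 by limma-voom or DESeq2. Between neuron types 3 were called when fed and 4 when FD, each higher in AGRP neurons, where 3.36% and 9.36% of all genes were called higher. Bambi, a pseudoreceptor that dampens signalling, had 17.6 to 29.5 normalized CPM in fed AGRP and 0.393 to 4.73 in fed POMC libraries (3.65 ± 0.62, edgeR q = 8.51e-05), and Pmepa1, a SMAD-induced inhibitor, was higher by 1.63 ± 0.46 when fed (edgeR q = 0.0236) and by 3.55 ± 0.49 when FD (edgeR q = 1.84e-06). The fed call of Pmepa1 was kept in 16 of 21 fits that left out 1 library (q up to 0.0726) and lost with age group (q = 0.0715) or spike-in set (q = 0.0508) as a block and on spike-in scaling (q = 0.347). Tgfbi, a TGF-beta induced matrix protein, had 271 to 897 reads in fed and 290 to 489 in FD AGRP libraries, against 0 to 4 in fed and 0 to 37 in FD POMC libraries. Its rise in POMC neurons (edgeR q = 0.0419) rests on those few reads, and it did not pass by limma-voom (q = 0.536).

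**Figure D5:**
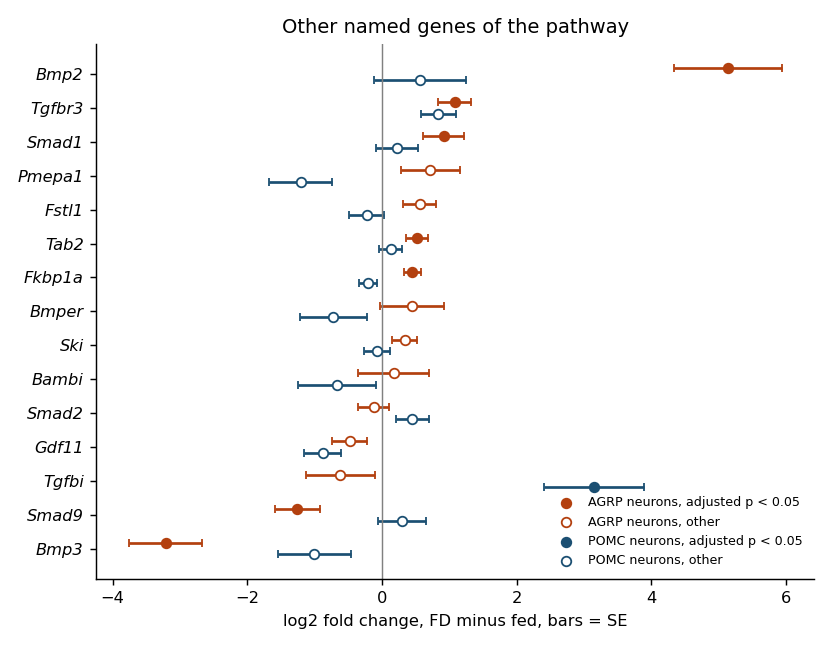
Log2 fold changes, FD minus fed, of the named pathway genes that are not among the 10 receptors, in AGRP and POMC neurons; bars are SE and filled points have an edgeR adjusted p under 0.05. Bmp2 (5.14) and Bmp3 (−3.21) mark the ends of the AGRP changes, and the filled POMC point is Tgfbi, which rests on 0 to 37 reads per library.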

How the data were processed

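RNA-Seq was done on 21 libraries, each from 1 mouse, so replicates are separate animals. Per the study's methods and processing notes, the authors trimmed reads with cutadapt 1.7.1, removed abundant sequences with Bowtie2 2.1.0, aligned to mm10 with STAR 2.4.0i and made gene counts with HTSeq 0.6.1p1; the deposited files hold these raw counts and the authors' TPM. The library kit keeps no strand, so reads from overlapping genes cannot be assigned by strand. Reads outside genes (25.6% to 55.3% no-feature reads) and 92 spike-in rows were left out.

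Groups followed the sample labels. Genes over 1 CPM in at least 3 libraries (16513) were scaled by TMM and tested in 1 edgeR 4.0.16 quasi-likelihood fit over the 4 groups (R 4.3.3, robust, two-sided), with Benjamini-Hochberg adjustment over all of them. Intervals are 1.96 SE. TPM was used to compare genes, and normalized CPM to compare groups. Simulated counts for AGRP neurons with 200 changed genes among 15947 were tested: edgeR called 99 of 100 genes changed 4-fold, 61 of 100 changed 2-fold, and 5 unchanged genes, limma-voom 96, 54 and 6, and DESeq2 100, 68 and 30. The changed genes were drawn only from those averaging over 20 CPM, so these shares do not hold for genes with fewer reads. Each gene had 1 spread in all groups, estimated by edgeR, so they do not rank the tools where spread differs between groups.

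The 10 receptors, the 101 pathway genes and the markers were chosen with earlier results of these data known. All 10 receptors are named. In each pathway list and comparison, the 3 called genes with the largest change are named if they averaged over 20 CPM in a group; Fkbp1a in AGRP neurons, Acvrl1, Amhr2, Orc4 and Aldh1l1 were added after their values were seen. For likeness, the 5 genes with the highest Pearson r with the most variable receptor are named. Alternatives were limma-voom (limma 3.58.1), DESeq2 1.42.0, RLE normalization, spike-in scaling (by spike-in reads, labelled volume and sorted cell number), no filter, the compared groups alone, replicate number, age group or spike-in set as a block, sorted cells as a covariate, limma on log2(TPM + 1), and each library left out.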

Additional observations from a re-analysis of the deposited data

Results flagged for a closer look

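Within a group, 9 values stood apart from the others of their group by Dixon's test at 95% in 97 groups of 5 or 6 libraries; chance gives about 1 in 20. In normalized CPM they were Acvr1c at 769 in FD AGRP replicate 1 (nearest 1169), Bmpr1b at 3.91 in FD AGRP replicate 2 (nearest 0.692), Tgfbr1 at 38.3 in fed AGRP replicate 3 (nearest 28.1) and at 75.4 in FD AGRP replicate 4 (nearest 36.4), and Acvr2b at 15.7 in FD POMC replicate 2 (nearest 3.98). The others were Bambi at 17.6 in fed AGRP replicate 3 (nearest 26.8), Fkbp1a at 1186 in FD AGRP replicate 2 (nearest 803), and Gdf11 at 89.5 and Smad1 at 94.4 in FD POMC replicate 1 (nearest 48.1 and 47.4).

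The FD change differed between AGRP and POMC neurons, by the edgeR test of the difference, for 6 of the named genes. The AGRP change minus the POMC change was −1.39 ± 0.34 for Acvr1b (q = 0.0109), −0.99 ± 0.25 for Acvr2a (q = 0.0138), 4.58 ± 1.00 for Bmp2 (q = 0.00376), 0.65 ± 0.19 for Fkbp1a (q = 0.0286), −1.55 ± 0.49 for Smad9 (q = 0.0491) and −3.77 ± 0.90 for Tgfbi (q = 0.00813). That of Smad9 passed in 5 of 21 fits that left out 1 library, and that of Fkbp1a was lost without fed AGRP replicate 1 or 3, FD POMC replicate 2 or fed POMC replicate 2 (q from 0.0526 to 0.0592). Each of these passed in 6 of 10 alternatives. That of Tgfbi, which rests on 0 to 37 POMC reads per library, did not pass by limma-voom (q = 0.236), limma on TPM (q = 0.122) or on spike-in scaling (q = 0.414), and that of Bmp2 did not pass by limma-voom (q = 0.134) or limma on TPM (q = 0.0717). On spike-in scaling those of Acvr1b and Acvr2a did not pass (−0.33 and −0.15).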

How the results depend on the processing

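Between FD and fed AGRP neurons the 1 receptor called became 2 by limma-voom, DESeq2 and the compared groups alone, and 0 on spike-in scaling; pathway calls went from 7 to 2 on spike-in scaling and 4 with sorted cells as covariate. In POMC neurons the 0 receptors became 1 by DESeq2, and the 1 pathway gene became 3 by DESeq2, 2 with the spike-in set block, and 0 by limma-voom, spike-in scaling, compared groups alone, the age block and limma on TPM. Over all genes tested, DESeq2 called 382 in POMC neurons, against 76 by edgeR. Between fed AGRP and POMC neurons the 2 receptors became 1 on spike-in scaling and with sorted cells, and the 10 pathway genes 3 on spike-in scaling. Between FD AGRP and POMC neurons 3 became 1, and for the test between changes 2 became 0, on spike-in scaling (Acvr1b −0.33, Acvr2a −0.15). Over all genes tested, spike-in scaling also gave fewer calls than TMM scaling: 90 against 1733 between FD and fed AGRP neurons, and 13 against 76 in POMC neurons. They were 293 against 1269 between fed neuron types, 1114 against 3086 between FD neuron types, and 117 against 1153 for the test between changes.

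Of the called differences, spike-in scaling reversed, between FD AGRP and FD POMC neurons, Acvr1b (0.15), Acvr2a (0.25), Gdf11 (0.36) and Smad2 (0.46), none called there. Among the 9 receptors, called or not, it turned the sign of 5 in that comparison, 7 between FD and fed POMC neurons, 2 between FD and fed AGRP neurons, 1 between fed neuron types and 3 for the test between changes. It shifted the median of all genes by −1.11 in POMC neurons, 1.1 between FD AGRP and POMC neurons and 1.04 for the test between changes; limma on TPM shifted it by −0.28 in AGRP neurons. The spike-in sets were uneven in POMC neurons: 1 set held 0 FD and 2 fed libraries, another 2 FD and 0 fed, and the last 3 FD and 3 fed. In POMC neurons the spike-in reads ran from 83690 to 102689 in the set with only fed libraries. They ran from 1152518 to 1812282 in the set with only FD libraries, and from 94095 to 279865 in the last. The scaling was built from these reads, so in POMC neurons it cannot be told apart from the spike-in set. The cause of the shifts was not tested.

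Leaving out 1 library gave 1 to 2 receptors in FD AGRP, 0 to 0 in FD POMC, 1 to 2 between fed and 3 to 4 between FD neuron types, and 2 to 3 for the test between changes; pathway counts ran from 4 to 8, 0 to 2 and 6 to 10. Same-numbered libraries did not deviate together (r from −0.183 to 0.118, 1 of 20 pairs over 0.1), so the numbers do not pair mice. With the replicate block 2 receptors were called in AGRP neurons (Acvr1c added, q = 0.0445), 0 in POMC neurons, 2 and 3 between neuron types and 2 for the test between changes, with 8, 0 and 9 pathway genes. Few reads limit Bmpr1b, Acvr2b and Tgfbr2. With 61 of 100 simulated 2-fold changes called in AGRP neurons, among genes averaging over 20 CPM, receptor changes of 2-fold or less may be missed. Larger changes may be missed as well: the fitted AGRP changes of Acvr1c (2.61-fold) and Bmpr1b (0.304-fold) did not pass.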
